A study of Mus musculus with 6 samples.

Results

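The Indian hedgehog and PTHrP loop was followed through 9 genes, *Ihh*, *Ptch1*, *Smo*, *Gli1*, *Gli2*, *Gli3*, *Hhip*, *Pthlh* and *Pth1r*. They were chosen by symbol, with earlier results of these data known, and all were present among the 32286 features of each library. The data were single-cell RNA sequencing (scRNAseq) libraries of "digits in a dish" (DID) cultures, in which dissociated distal forelimb bud mesenchyme of E11.5 embryos of CD-1 mice, an outbred stock, organises into digit-like cartilage with joints on a dish. Cultures were sampled at Day 2, Day 7 and Day 10, days the study used for digit initiation, digit and joint specification, and maturation. Each day had 2 libraries, labelled replicates A and B, which the study describes as independent cultures and made with the 10x Genomics 3′ V3.1 chemistry. The mice were wild type, no group carried a transgene or received a drug, and limb buds of several embryos were pooled before seeding, so that a library is a culture and not an animal. With n = 2 libraries per day, every p-value below rests only on the spread among these few libraries, with the estimate of spread shared across features. Where cells of a library are set against other cells of the same library, it is the spread of that difference.

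In a growing skeletal element, prehypertrophic chondrocytes secrete Indian hedgehog (*Ihh*), which binds the receptor Patched 1 (*Ptch1*) and thereby releases the membrane protein Smoothened (*Smo*) to act on the Gli transcription factors. *Ptch1*, *Gli1* and *Hhip*, which encodes a membrane protein that binds hedgehog ligands, are themselves hedgehog targets and are used as a readout of the pathway. Hedgehog signalling sustains *Pthlh*, the gene for PTHrP, near the joint ends of the element, and PTHrP acts through its receptor (*Pth1r*) on chondrocytes to delay hypertrophy and with it the onset of *Ihh*, which closes the loop.

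The filters stated by the study kept 72099 of 91215 barcodes, 9448 to 16486 cells and 178022112 to 260245417 UMIs (unique molecular identifiers, 1 per captured mRNA molecule) per library. Median UMIs per cell ran from 3871 in Day 2 replicate B to 24197 in Day 10 replicate A, and pairs of libraries shared 24 to 67 barcodes (0.25 to 0.54% of the smaller library). Day 2 replicate B stood apart from its partner, with 32.6% of its cells in a shallow unnamed cluster (Cluster 0) that held 4.83% of the cells of replicate A. Cells were clustered within each day without the 9 genes or their pathway lists and named from marker lists, and these rebuilt names may differ from those of the study. "Cartilage-like cells" are the clusters named chondrocyte-like, which were Cluster 6 at Day 2, Clusters 1, 5, 8 and 15 at Day 7 and Clusters 0, 6, 9 and 13 at Day 10, and they made up 12.7 and 5.64% of the Day 2 cells (A, then B), 28.8 and 30.9% of those of Day 7 and 25.1 and 25.3% of those of Day 10. Day 7 Cluster 5 rests on 3 markers and is led by long nuclear RNAs. A Day 10 cluster led by the bone matrix gene *Ibsp* and the osteoblast factor *Sp7* (Cluster 5, 762 and 795 cells) was left unnamed and out of the cartilage-like cells by a rule set after its values were seen.

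Start-site sequences are shown for the 2 ligands, which moved in opposite directions over the days, and for *Hhip*, the target with the largest difference between cells with and without *Pthlh*. These are the 250 bases before the annotated transcription start from RefSeq (GRCm38.p6), on the minus strand, for *Ihh* at chr1:74951673-74951922, for *Pthlh* at chr6:147264014-147264263 and for *Hhip* at chr8:80058009-80058258, written 5′ to 3′ with a cyclic AMP response element (TGACGTCA) in capitals. The *Pthlh* window overlaps the 5′ end of the gene span given below (chr6:147252101-147264183), which comes from another annotation.
Ihh: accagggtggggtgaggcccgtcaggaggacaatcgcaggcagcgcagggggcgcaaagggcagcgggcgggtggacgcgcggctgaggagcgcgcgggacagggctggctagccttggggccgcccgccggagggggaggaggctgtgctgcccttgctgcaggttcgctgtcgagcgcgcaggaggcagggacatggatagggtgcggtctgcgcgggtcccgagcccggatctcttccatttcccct
Pthlh: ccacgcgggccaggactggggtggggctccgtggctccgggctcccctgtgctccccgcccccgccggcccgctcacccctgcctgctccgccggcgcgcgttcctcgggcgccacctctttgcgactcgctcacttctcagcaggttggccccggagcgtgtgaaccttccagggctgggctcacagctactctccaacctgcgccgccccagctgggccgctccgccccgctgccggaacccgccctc
Hhip: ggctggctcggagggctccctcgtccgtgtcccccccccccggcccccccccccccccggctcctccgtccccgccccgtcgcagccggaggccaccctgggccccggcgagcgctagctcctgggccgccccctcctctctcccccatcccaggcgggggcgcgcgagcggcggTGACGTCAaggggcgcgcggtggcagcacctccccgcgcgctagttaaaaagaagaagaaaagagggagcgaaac
All 3 windows were rich in G and C (72, 75.2 and 76%), and the *Hhip* window held the cyclic AMP response element with its first base 75 bases before the start site. Windows were found for 8 of the 9 members, and their 10 windows were searched on both strands for the GLI motif GACCACCCA, the cyclic AMP response element and the RUNX motif TGTGGT. The GLI motif was in 0 of the 10 windows and in 0.225% of all 32851 windows, the cyclic AMP response element was in the *Hhip* window alone and in 1.55% of all windows, and the RUNX motif was in a *Gli3* window alone and in 14% of all windows. A match describes letters in this window and is not a measured binding site.

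*Ihh* (GRCm38 chr1:74945315-74951672, minus strand) was measured in whole cultures as CPM, UMI counts per 1000000 UMIs summed over all cells of a library and scaled by TMM, a factor that corrects for library composition. Its level was 4.98 and 5.74 CPM in Day 2 replicates A and B, 16.0 and 16.9 CPM at Day 7, and 28.0 and 27.7 CPM at Day 10. Both libraries of each day were above both libraries of the day before, and the replicates differed by little (mean 5.36 ± 0.541, 16.5 ± 0.670 and 27.9 ± 0.211 CPM, SD, n = 2). *Ihh* rose from Day 2 to Day 7 by a log2 fold change of 1.62 ± 0.07 (SE; edgeR adjusted p = 1.95e-07) and from Day 7 to Day 10 by 0.76 ± 0.07 (adjusted p = 7.16e-05). In sums over whole cultures, more cells of a type and more RNA per cell cannot be told apart.

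Across the loop, 8 of 9 members passed the test from Day 2 to Day 7 (4 higher, 4 lower), where 70.3% of the 18987 features tested did (35.7% higher, 34.6% lower). From Day 7 to Day 10, 8 members passed (3 higher, 5 lower) against 52.2% of all features (26.3% higher, 25.9% lower), and from Day 2 to Day 10 all 9 passed (4 higher, 5 lower) against 77.3% (39.0% higher, 38.2% lower). Of the last, *Hhip* (-0.19) lost its call under 7 alternatives and *Smo* (0.19) without Day 10 replicate A (0.14) and among cells of at least 10000 UMIs (0.11). Most features thus changed with day, and the values below give how each member moved rather than that it moved.

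**Figure D1:**
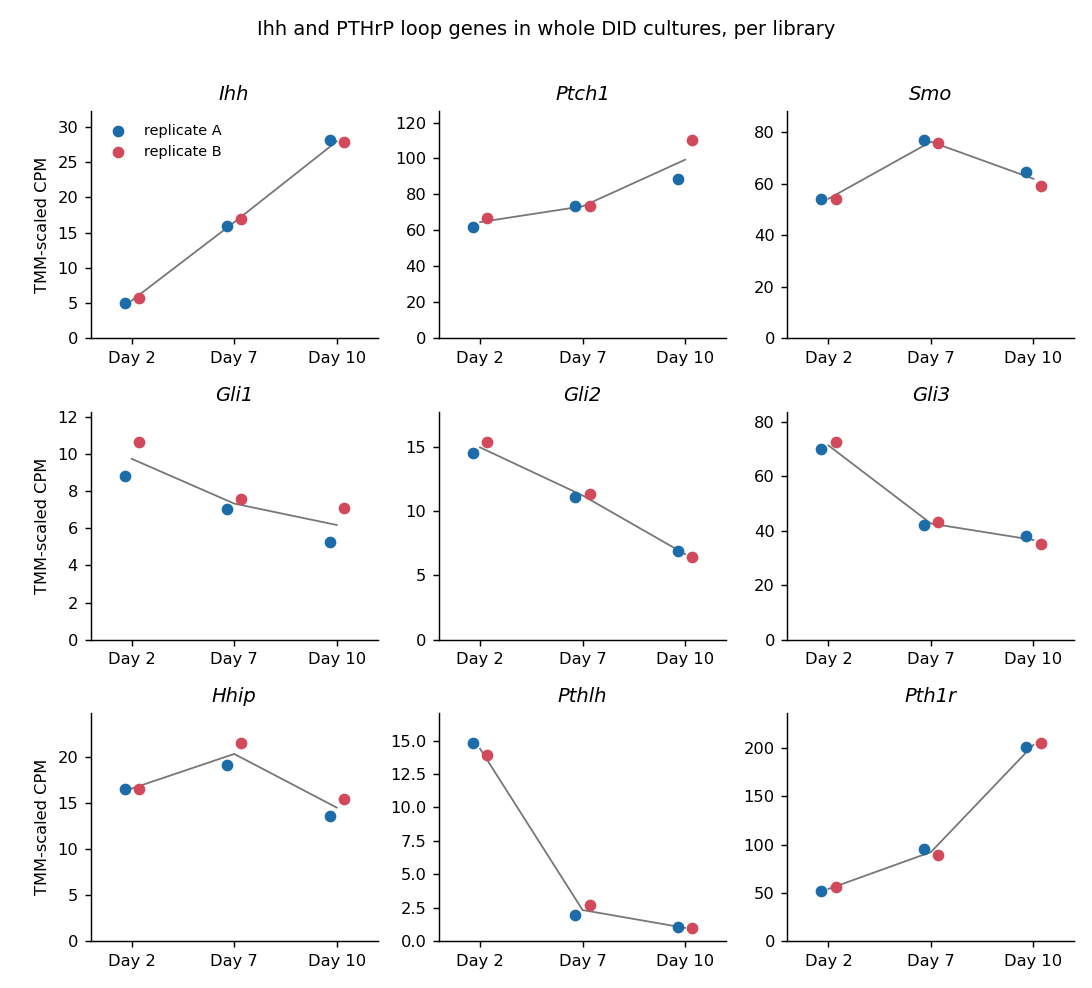
Level of each of the 9 members in whole cultures, in CPM on a linear axis that starts at 0, for each of the 6 libraries by day, with points for replicates A and B and a line through their mean. *Ihh* and *Pth1r* climb over the 3 days, from 4.98 and 5.74 to 28.0 and 27.7 CPM for *Ihh*, while *Pthlh* drops from 14.8 and 14.0 to 1.01 and 0.941 CPM.

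Cartilage-like cells held 70.1 and 64.6% of all *Ihh* UMIs at Day 2, 83.2 and 83.7% at Day 7, then 90.7 and 94.6% at Day 10, although they were never more than 30.9% of cells. At Day 7 they were deeper than the culture as a whole (median 21202 and 20035 against 8062 and 9337 UMIs), so their share of all UMIs was larger than their share of cells. At Day 2 the chondrocyte-like Cluster 6 had 35 to 35.6 CPM (the range over both libraries, here and for clusters below not scaled by TMM), and the joint interzone-like Cluster 5 had 1.25 to 1.65 CPM. At Day 7 the chondrocyte-like Clusters 8 and 1 had 34.3 to 35 and 31.0 to 34.4 CPM, ranges that overlap, the chondrocyte-like Cluster 5 had 6.98 to 10.0 CPM, overlapping the 9.03 to 13.8 CPM of the unnamed Cluster 0, and the joint interzone-like Cluster 4 had 2.26 to 2.58 CPM.
At Day 10 the order among cartilage-like clusters was wide. Cluster 0 had 103 to 120 CPM, Cluster 6 had 66.5 to 88.0, Cluster 13 had 52.6 to 67.4 and Cluster 9 had 21.7 to 25.9, so that Clusters 6 and 13 were the only neighbours in this order that overlapped between libraries. The *Ibsp*-high Cluster 5 had 5.35 to 15.4 CPM, below each of them.

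The share of cells with an *Ihh* UMI was read after thinning each cell to 1000 UMIs, since depth differed between days and classes. It was 3.19 and 3.19% of cartilage-like cells at Day 2, 2.14 and 2.18% at Day 7, then 6.04 and 5.86% at Day 10, and without thinning it was 32.2 and 33.7%, 22.3 and 22.4%, and 36.5 and 33.8%. In the other cells the thinned share was 0.203 and 0.418%, 0.598 and 0.483%, and 0.402 and 0.274% on the 3 days. Immune-like cells of Day 10 (Cluster 14, 118 and 164 cells, median 21231.5 and 21872 UMIs per cell), which should lack *Ihh*, gave a thinned share of 0.097 and 0.277%, and an unthinned share of 3.39 and 5.49% against 4.04 and 3.08% in the other cells. As an average over the other cells of Day 10, the *Ihh* share was thus at or below this background in replicate B and above it in replicate A. Single clusters among the other cells were above the immune-like level in both libraries. The unnamed Cluster 12 had 11.9 to 19.3 CPM and the *Ibsp*-high Cluster 5 had 5.35 to 15.4, against 1.37 to 2.26 in the immune-like cells.

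*Ptch1* (chr13:63508328-63573598, minus strand), the receptor and a target, was measured at 62.2 and 67.1 CPM in whole cultures at Day 2, 73.4 and 73.4 at Day 7, then 88.6 and 110 at Day 10. It did not pass the test from Day 2 to Day 7 (log2 fold change 0.18 ± 0.09, adjusted p = 0.106) and rose from Day 7 to Day 10 by 0.44 ± 0.09 (adjusted p = 0.00459). The first of these became a call at 0.19 without Day 10 replicate A or replicate B, and at 0.20 with no filter on low counts.
*Ptch1* was spread over many cell types. At Day 2 its highest levels were in the unnamed Cluster 7 (170 to 210 CPM), which is led by mitochondrial transcripts, and the joint interzone-like Cluster 5 (165 to 185 CPM), whose ranges overlap, with the chondrocyte-like Cluster 6 at 105 to 111 CPM. At Day 7 the dividing Cluster 11 (243 to 395 CPM), chondrocyte-like Cluster 5 (243 to 286) and unnamed Cluster 3 (198 to 237) led, and at Day 10 the unnamed Cluster 7 (381 to 532), perichondrium-like Cluster 2 (296 to 373), chondrocyte-like Cluster 9 (307 to 311), *Ibsp*-high Cluster 5 (251 to 301) and chondrocyte-like Cluster 6 (254 to 276) did. Cluster 0 of Day 10, where *Ihh* was highest, had 111 to 120 CPM of *Ptch1*, less than any of those. Among them Cluster 7 stood above the rest, and Cluster 2 overlapped with Cluster 9 and with Cluster 5. Clusters 5 and 6, which overlapped with each other, lay below Cluster 9. Several *Ptch1*-high clusters were also rich in nuclear RNA: over 80 sums per cluster and library, Pearson's r between the log2 level of a member and the summed CPM of 4 nuclear RNAs (*Neat1*, *Malat1*, *Meg3*, *Kcnq1ot1*) was 0.77 for *Smo*, 0.72 for *Ptch1*, 0.62 for *Gli1* and 0.46 for *Hhip*. It was 0.41 for *Gli3*, 0.33 for *Pth1r*, 0.32 for *Gli2*, 0.19 for *Ihh* and 0.02 for *Pthlh*. These sums share libraries and depth, the r is a description, and the part of nuclear RNA in the cluster levels was not tested.

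*Smo* (chr6:29735503-29761365, plus strand), the transducer that Ptch1 restrains, was at 54.1 and 54.2 CPM at Day 2, 76.7 and 75.7 at Day 7, then 64.6 and 59.1 at Day 10, with no overlap between days. It rose to Day 7 by 0.49 ± 0.05 (log2; adjusted p = 4.69e-05) and fell to Day 10 by 0.30 (adjusted p = 0.00214). Cartilage-like cells and other cells had much the same level, 74.5 and 75.2 against 78.4 and 76.4 CPM at Day 7 and 69.3 and 65.5 against 64.3 and 58.3 CPM at Day 10.

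*Gli1* (chr10:127329882-127341974, minus strand), the activator that is itself switched on by hedgehog signalling, was at 8.82 and 10.7 CPM at Day 2, 7.07 and 7.6 at Day 7, then 5.29 and 7.07 at Day 10. It fell from Day 2 to Day 7 by 0.41 (log2; SE 0.14, adjusted p = 0.0243) and was not called from Day 7 to Day 10 (-0.25 ± 0.14, adjusted p = 0.161), while the whole span from Day 2 to Day 10 was -0.66 ± 0.14 (adjusted p = 0.00192). The Day 7 call was lost without Day 2 replicate B (-0.27) or Day 7 replicate A (-0.34), and *Gli1* became a call from Day 7 to Day 10 without Day 10 replicate B (-0.47).
The clusters with most *Gli1* were not those with most *Ihh*. At Day 2 the joint interzone-like Cluster 5 led with 27.0 to 32.8 CPM. At Day 7 the dividing Cluster 11 had 32.4 to 37.0 CPM, the chondrocyte-like Cluster 5 had 18.4 to 24.4 and the joint interzone-like Cluster 4 had 17.6 to 20.1, with overlap between Clusters 5 and 4. At Day 10 the unnamed Cluster 7 (23.5 to 30.4 CPM), the *Ibsp*-high Cluster 5 (19.5 to 23.2) and the perichondrium-like Cluster 2 (14.9 to 20.3) led, against 3.96 to 4.60 in Cluster 0. Other cells held 90.1 and 87.9% of *Gli1* UMIs at Day 2, 72.0 and 71.6% at Day 7, then 77.3 and 82.2% at Day 10. Cartilage-like cells were 12.7 and 5.64, 28.8 and 30.9, and 25.1 and 25.3% of cells. A share of cells is not a share of UMIs, since depth differed. At Day 7 median UMIs were 21202 and 20035 in cartilage-like cells against 8062 and 9337 over all cells. Under the main clustering *Gli1* per UMI was lower in cartilage-like cells than in the whole culture in each library, a comparison that was not tested. It was at 7.18 and 10.1, 5.10 and 5.75, then 4.87 and 5.34 CPM there.

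*Hhip* (chr8:79965851-80058006, minus strand) was at 16.6 and 16.6 CPM at Day 2, 19.2 and 21.6 at Day 7, then 13.6 and 15.5 at Day 10. It rose to Day 7 by 0.29 ± 0.08 (log2; adjusted p = 0.00802), a call lost without Day 7 replicate B (0.22) and among cells of at least 10000 UMIs (0.13), and fell to Day 10 by 0.49 (adjusted p = 0.0011).
The clusters that led in *Hhip* differed in name over the days, while its whole-culture level stayed within 13.6 to 21.6 CPM. Clusters were drawn for each day apart and none was named joint interzone-like at Day 10, so a change of cell type was not tested. At Day 2 the joint interzone-like Cluster 5 had 90.6 to 107 CPM and held 45.6 and 45.4% of all *Hhip* UMIs. At Day 7 the joint interzone-like Cluster 4 (77.4 to 84.4 CPM) and the tenocyte-like Cluster 7 (79.0 to 79.4) led and could not be ordered. At Day 10 the *Ibsp*-high Cluster 5 had 85.5 to 86.0 CPM and held 51.9 and 51.4% of all *Hhip* UMIs in 7.34 and 7.99% of cells, followed by the unnamed Cluster 7 at 40.4 to 42.4 CPM and the perichondrium-like Cluster 2 at 29.9 to 32.9. The *Ihh*-high Cluster 0 had 5.15 to 5.36 CPM.
In that *Ibsp*-high cluster *Hhip* met *Gli1* (30.4 and 30.3% of all *Gli1* UMIs) and *Pth1r* (426 to 453 CPM), together with *Ibsp* at 5208 and 7088 CPM, *Sp7* at 84 and 76 CPM and the hypertrophic collagen gene *Col10a1* at 44 and 68 CPM.

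*Gli2* (chr1:118834132-119053619, minus strand), the main activator, and *Gli3* (chr13:15463235-15730026, plus strand), the main repressor of the family, both fell at each step. *Gli2* went from 14.5 and 15.4 CPM at Day 2 to 11.1 and 11.4 at Day 7, then 6.92 and 6.40 at Day 10, with log2 fold changes of -0.41 ± 0.06 (adjusted p = 3.10e-04) and -0.75 ± 0.06 (adjusted p = 5.21e-05). *Gli3* went from 69.9 and 72.7 CPM to 42.1 and 43.1 and then 38.1 and 35.1, with -0.74 ± 0.06 (adjusted p = 3.78e-06) and -0.22 ± 0.06 (adjusted p = 0.0104). The second *Gli3* call was lost without Day 7 replicate B (-0.20), without Day 10 replicate B (-0.16) and among cells of at least 10000 UMIs (-0.17). At Day 2 *Gli3* (163 to 180 CPM) and *Gli2* (28.4 to 31.3 CPM) were both measured in the joint interzone-like Cluster 5 at more than their whole-culture level.

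*Pthlh* (chr6:147252101-147264183, minus strand), which encodes PTHrP, was the member that fell most. It was at 14.8 and 14.0 CPM at Day 2, 1.91 and 2.72 at Day 7, then 1.01 and 0.941 at Day 10, opposite to *Ihh* and without overlap between days. Its log2 fold change was -2.64 ± 0.14 to Day 7 (adjusted p = 4.49e-07) and -1.24 ± 0.16 to Day 10 (adjusted p = 3.33e-04).
*Pthlh* marked the joint interzone-like cells, the early joint tissue defined by *Gdf5*, on both days that had such a cluster. At Day 2 Cluster 5 had 100 to 103 CPM and held 56.6 and 52.0% of all *Pthlh* UMIs, and 44.0 and 45.5% of its cells had a *Pthlh* UMI (9.82 and 10.3% after thinning). The next clusters, the unnamed Cluster 7 (16.3 to 29.2 CPM) and the tenocyte-like Cluster 4 (19.6 to 19.8), could not be ordered between them. At Day 7 Cluster 4 had 10.0 to 15.2 CPM and held 40.5 and 53.2% of *Pthlh* UMIs, and the clusters below it, among them the unnamed Cluster 3 (1.49 to 2.72 CPM) and the dividing Cluster 6 (1.64 to 2.31), overlapped.
At Day 10 no cluster stood out, with overlapping ranges in the surface-like Cluster 11 (1.20 to 3.03 CPM), the unnamed Cluster 15 (1.18 to 2.64) and the interdigital-like Cluster 4 (1.39 to 1.86), and *Pthlh* had 0 UMIs in the immune-like cells. Cartilage-like cells had 8.14 and 3.35 CPM at Day 2, 0.70 and 1.1 at Day 7, then 0.679 and 0.632 at Day 10, less than the other cells in each library (15.9 and 15.7, 2.68 and 3.72, and 1.14 and 1.06 CPM).

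*Pth1r* (chr9:110722085-110747145, minus strand), the PTHrP receptor, rose at each step. It was at 52.3 and 55.7 CPM at Day 2, 95.1 and 89.4 at Day 7, then 202 and 206 at Day 10, a log2 fold change of 0.77 ± 0.06 (adjusted p = 2.97e-06) and then 1.14 ± 0.06 (adjusted p = 5.26e-06). At Day 2 the chondrocyte-like Cluster 6 had 87.4 to 91.9 CPM against 49.7 to 58.7 in the joint interzone-like Cluster 5. At Day 7 the chondrocyte-like Clusters 8 and 1 had 147 to 161 and 136 to 140 CPM. At Day 10 Cluster 0 had 534 to 574 CPM, the *Ibsp*-high Cluster 5 had 426 to 453 and the chondrocyte-like Cluster 6 had 368 to 451, with overlap between Clusters 5 and 6, while Clusters 13 and 9 had 247 to 270 and 190 to 212.
Cartilage-like cells held 16.7 and 17.2% of *Pth1r* UMIs at Day 2, 63.9 and 64.3% of them at Day 7 and 65.4 and 61.0% at Day 10. As means of both libraries, other clusterings gave 19.5 to 40.4% at Day 2 in place of 17.0% and 44.1 to 75.1% at Day 7 in place of 64.1%. The immune-like cells of Day 10 had 21.3 and 33.7 CPM, below every Day 10 cluster named here.

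**Figure D2:**
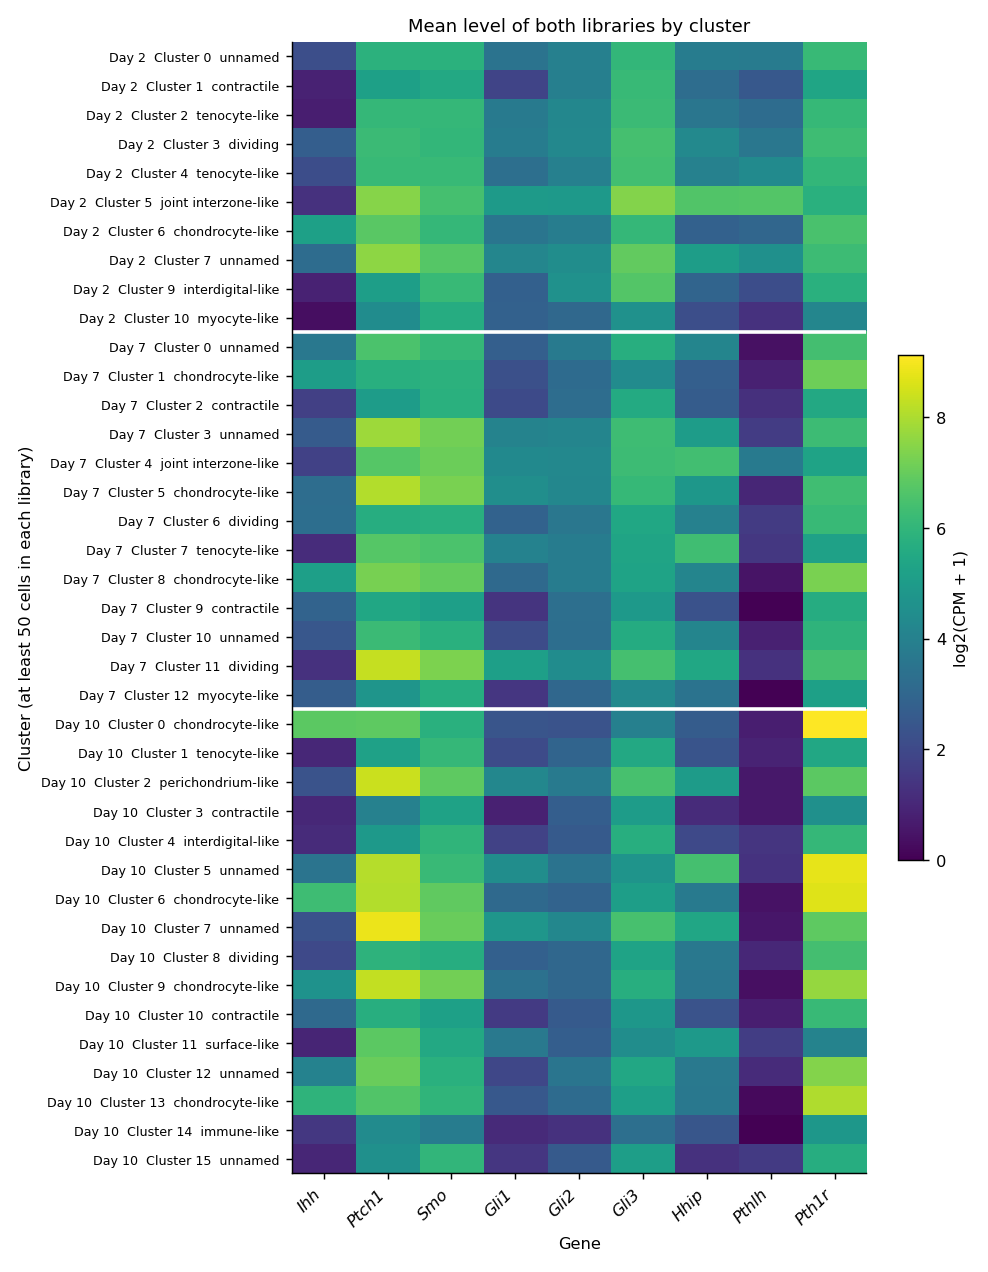
Heatmap of the level of each member in each cluster with at least 50 cells in both libraries, as log2(CPM + 1) averaged over the 2 libraries, with clusters in rows by day and members in columns. The highest *Ihh* level of each day lies in a chondrocyte-like cluster, with 103 to 120 CPM in Day 10 Cluster 0, whereas *Pthlh* stands out in the joint interzone-like clusters of Day 2 (100 to 103 CPM) and Day 7 (10.0 to 15.2 CPM).

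The sums were then split into cartilage-like and other cells to ask whether members moved with day inside cartilage. In cartilage-like cells 8 of 9 members passed the test from Day 2 to Day 7 (4 higher, 4 lower), against 70.3% of the 16153 features tested (35.4% higher, 34.9% lower), and 6 from Day 7 to Day 10 (3 higher, 3 lower), against 41.8% (21.2% higher, 20.6% lower). *Ihh* was at 28.8 and 29.1 CPM at Day 2, 34.3 and 37.7 at Day 7, then 103 and 112 at Day 10. It rose by 0.32 ± 0.07 (log2; adjusted p = 9.50e-04) and then by 1.58 ± 0.06 (adjusted p = 4.93e-10), a later step larger than the earlier one. Over the earlier step the share of these cells with an *Ihh* UMI, given above, went the other way. That share fell in both replicates, with and without thinning, so the rise is one of summed level and not of the share of cells. The earlier step depended on the clustering, at 1.11 without integration, 1.6 at 0.5 times and 1.29 at 2 times the resolution, beside later steps of 1.69, 1.83 and 1.41.
*Pth1r* was at 72.0 and 75.1, then 157 and 153, then 534 and 533 CPM in these cells, and rose by 1.08 ± 0.06 (adjusted p = 6.34e-10) and 1.78 ± 0.06 (adjusted p = 7.07e-11). *Ptch1* was at 86.5 and 90.9, then 76.3 and 78.9, then 136 and 147 CPM, a fall of 0.19 (log2; adjusted p = 0.00935) that reversed to 0.45 under clustering at 0.5 times the resolution and was not called with no filter on low counts (-0.14) or without Day 7 replicate A (-0.17), and then a rise of 0.87 ± 0.06 (adjusted p = 6.10e-08).
The other targets were not called from Day 7 to Day 10 in these cells under the main clustering. *Gli1* was at 7.18 and 10.1, then 5.10 and 5.75, then 4.87 and 5.34 CPM, a fall of 0.67 (adjusted p = 5.47e-04) followed by -0.09 ± 0.13 (adjusted p = 0.628). *Hhip* was at 5.57 and 4.39, then 8.45 and 8.45, then 6.58 and 7.85 CPM, a rise of 0.76 ± 0.13 (adjusted p = 7.97e-05), lost without integration of the libraries (0.05), followed by -0.23 ± 0.10 (adjusted p = 0.0865). These values depended on the clustering: *Hhip* was called lower without integration (-0.46), at 0.5 times (-0.65) and at 2 times the resolution (-0.37), with no filter on low counts (-0.24) and without Day 10 replicate B (-0.36), and *Gli1* was called lower at 0.5 times the resolution (-0.42) and was at 0.28, not called, at 2 times. With the *Ibsp*-high Cluster 5 counted as cartilage-like, both directions to Day 10 turned, to 0.79 for *Gli1* and 1.72 for *Hhip*.
*Gli3* fell by 1.04 (adjusted p = 7.21e-10) and by 0.37 (adjusted p = 1.86e-04), *Gli2* was not called at first (-0.13 ± 0.08, adjusted p = 0.176, but called at -0.37 to -0.50 under the other 3 clusterings and at -0.21 among cells of at least 10000 UMIs) and then fell by 0.98 (adjusted p = 7.37e-07), and *Smo* rose by 0.47 ± 0.06 (adjusted p = 5.64e-06) and then fell by 0.15 (adjusted p = 0.0449), a call lost under 9 alternatives. *Pthlh* fell by 2.69 to Day 7 (adjusted p = 3.74e-06) and was not called to Day 10 (-0.45 ± 0.41, adjusted p = 0.414). That second step was called in 2 of the other clusterings, at -0.99 (no integration) and -1.06 (2 times the resolution).

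In the other cells 6 members were called from Day 2 to Day 7 (3 higher, 3 lower), against 66.9% of 18594 features (34.5% higher, 32.4% lower), and 7 from Day 7 to Day 10 (1 higher, 6 lower), against 51.6% (26.4% higher, 25.2% lower). *Ihh* was at 1.71 and 2.35, then 4.4 and 4.45, then 3.54 and 2.00 CPM there, a rise of 1.13 ± 0.25 (adjusted p = 0.00347), which turned to -1.05 without integration, and then a fall of 0.67 (adjusted p = 0.0462), a call lost under 7 alternatives and turned to 0.85 without integration. *Pth1r* was at 49.9 and 53.4, then 56.2 and 51.5, then 94.5 and 107 CPM, with no call at first (0.06 ± 0.07, adjusted p = 0.509, but called at 0.46 with 2 times the resolution and at -0.33 without integration) and then a rise of 0.90 ± 0.08 (adjusted p = 5.97e-05), a call lost when the *Ibsp*-high cluster was counted as cartilage-like (0.04). *Hhip* was at 18.3 and 18.6, then 26.1 and 29.7, then 16.2 and 18.2 CPM, and *Pthlh* fell by 2.30 (adjusted p = 9.17e-07) and by 1.54 (adjusted p = 1.18e-04).

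Whether the change with day differed between the 2 classes was tested as an interaction. From Day 7 to Day 10, 5 of 9 members were called, all in the direction of a higher change in cartilage-like cells, against 31.9% of all features in either direction (16.8% higher, 15.1% lower). The difference of log2 fold changes was 2.28 ± 0.22 for *Ihh* (adjusted p = 6.81e-06), 0.93 ± 0.05 for *Pth1r* (adjusted p = 6.45e-08), 0.63 ± 0.08 for *Ptch1* (adjusted p = 6.62e-05), 0.51 ± 0.10 for *Hhip* (adjusted p = 0.00224) and 0.23 ± 0.04 for *Smo* (adjusted p = 8.42e-04). The calls of *Ihh* and *Pth1r* held under the other 3 clusterings, that of *Ihh* at 0.88 without integration, whereas *Ptch1* (0.06), *Smo* (0.00) and *Hhip* (0.10) were lost at 0.5 times the resolution. *Hhip* was also lost at 2 times the resolution (0.17) and was at 3.55 with the *Ibsp*-high cluster counted as cartilage-like. Other members gained a call under some alternatives, *Gli1* (0.34 as reported) under 6 at 0.32 to 1.72 (but at -0.10 with 0.5 times the resolution), *Pthlh* (1.13) under 6 at 1.06 to 1.64 and, in the lower direction, *Gli2* (-0.22) under 3 at -0.25 to -0.35 and *Gli3* (-0.02) at 0.5 times the resolution (-0.33).
From Day 2 to Day 7, 6 members were called, against 46.0% of all features (23.1% higher, 22.8% lower). *Pth1r* (1.05 ± 0.06, adjusted p = 2.74e-08) and *Gli2* (0.28 ± 0.09, adjusted p = 0.0168) changed more upward in cartilage-like cells, and *Gli3* (-0.51 ± 0.06, adjusted p = 1.35e-05), *Ptch1* (-0.37 ± 0.09, adjusted p = 0.00362), *Ihh* (-0.79 ± 0.24, adjusted p = 0.0178) and *Gli1* (-0.41 ± 0.13, adjusted p = 0.0191) more downward. Under the other 3 clusterings *Pth1r*, *Gli3* and *Gli1* kept both direction and call. *Ihh* turned to 2.19 without integration and 0.78 at 0.5 times the resolution, *Ptch1* turned to 0.52 at 0.5 times the resolution, and *Gli2* lost its call under all 3 (-0.13, 0.03 and -0.04), with DESeq2 (0.25) and without Day 2 replicate A (0.30), Day 2 replicate B (0.27) or Day 7 replicate B (0.25). The *Gli1* call was lost with DESeq2 (-0.44), without Day 2 replicate B (-0.28) and without Day 7 replicate A (-0.36). The other 3 members were called under some settings, *Smo* without integration (-0.13) and at 2 times the resolution (-0.17), *Hhip* in opposite directions under the same clusterings (-0.58 and 0.29), and *Pthlh* without integration (-1.32) and without Day 2 replicate B (-0.84).

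**Figure D3:**
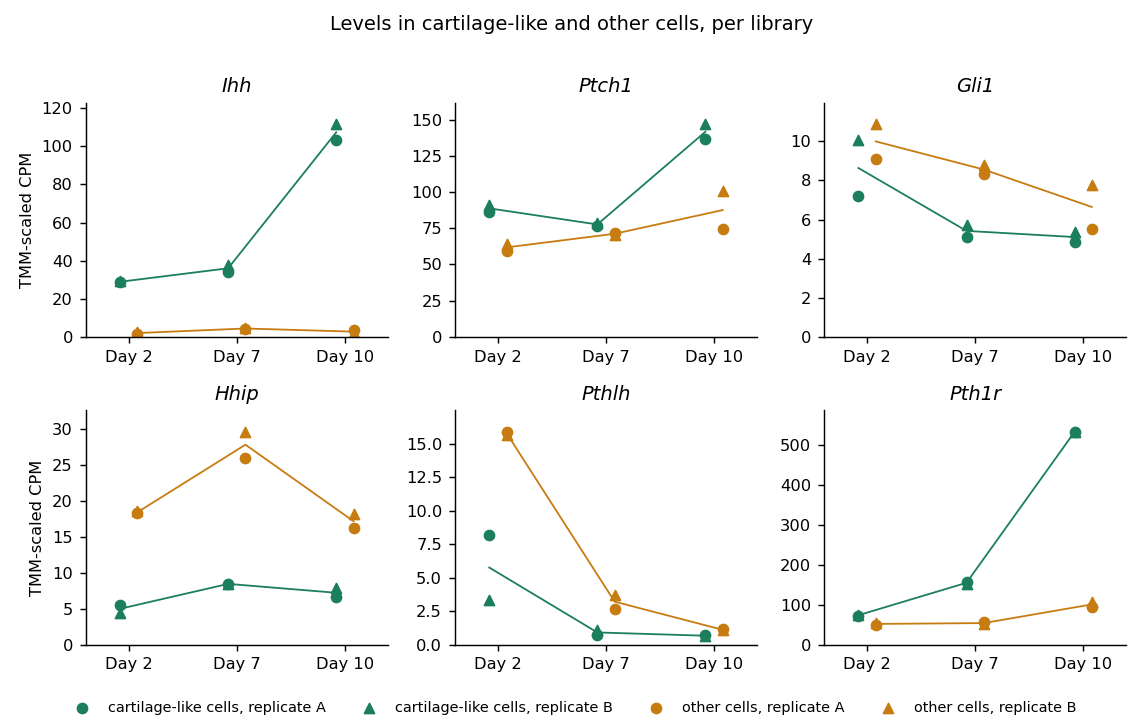
Level in CPM (linear axes from 0) of *Ihh*, *Ptch1*, *Gli1*, *Hhip*, *Pthlh* and *Pth1r* in cartilage-like and in other cells, 1 point per library and class by day, with lines through the mean of both libraries. *Ihh* and *Pth1r* reach 103 and 112 and 534 and 533 CPM in cartilage-like cells at Day 10, while *Hhip*, *Gli1* and *Pthlh* lie lower in cartilage-like than in other cells on that day, when the *Ibsp*-high Cluster 5 is counted among the other cells.

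Within cartilage-like cells, cells with at least 1 *Ihh* UMI were compared with cells without, summed per library. Such cells numbered 863 and 854 at Day 7, then 950 and 852 at Day 10, and they were deeper, with median UMIs of 31993 and 32536.5 against 17614.5 and 15968 at Day 7 and 36895.5 and 33827.5 against 11712.5 and 6403 at Day 10. At both days 8 of 8 other members were called, 1 higher and 7 lower, against 32.8% of 14679 features at Day 7 (17.4% higher, 15.3% lower) and 42.3% at Day 10 (21.3% higher, 20.9% lower).
The member that was higher was *Pth1r*, by 0.79 ± 0.05 (log2; adjusted p = 1.38e-08) at Day 7 and by 1.70 ± 0.05 (adjusted p = 6.37e-13) at Day 10. The members that report hedgehog input were lower in *Ihh*-positive cells, at Day 10 by -1.55 ± 0.13 for *Hhip* (adjusted p = 1.56e-07), -1.10 ± 0.13 for *Gli1* (adjusted p = 5.54e-06) and -0.47 ± 0.05 for *Ptch1* (adjusted p = 8.68e-07). *Smo*, *Gli2* and *Gli3*, which are not used as a readout, were lower too, at -0.40, -0.58 and -0.47, values close to that of *Ptch1*. *Pthlh* was lower by -3.14 ± 0.46 (adjusted p = 4.65e-05), from 41 and 33 UMIs in all cartilage-like cells, with values of -3.48 to -1.39 over the alternatives and no adjusted p from DESeq2.
At Day 7 the same 3 targets were at -1.20 ± 0.12, -0.93 ± 0.13 and -0.48 ± 0.05, and *Smo*, *Gli2* and *Gli3* were at -0.39, -0.50 and -0.40. When negative cells were matched to positive cells on UMIs, 3 members stayed called at Day 7 (*Pth1r*, *Hhip* and *Smo*), with *Ptch1* at 0.04 and *Gli1* at -0.19. At Day 10 all 8 stayed called, but matching could not close the gap in depth (median 27044.5 and 23326.5 UMIs in the matched negative cells). Over all cells of Day 10 in place of cartilage-like cells, *Ptch1* turned to 0.44. *Gli2* (-0.42) and *Pthlh* (-1.16) lost their Day 7 calls without Day 7 replicate A, and *Gli2* (-0.44) its Day 10 call without Day 10 replicate A, and with DESeq2 on both days (-0.50 and -0.57). At Day 2, in a comparison added after the values were seen, 3 members were called against 8.08% of 15454 features (4.2% higher, 3.88% lower), namely *Pth1r* (0.55 ± 0.06), *Ptch1* (0.25 ± 0.06) and *Gli3* (-0.49 ± 0.07), and *Ptch1* was lost without Day 2 replicate B (0.15).

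Cells with at least 1 *Pthlh* UMI, over all cell types, numbered 1334 and 1268 at Day 2, 269 and 338 at Day 7, then 176 and 172 at Day 10. They were deeper than the negative cells in 5 of 6 libraries, with a median of 11997 against 3598.5 UMIs in Day 2 replicate B and 18433 against 7735 UMIs in Day 7 replicate A. At Day 7, 6 of 8 other members were called (4 higher, 2 lower) against 9.07% of 17644 features (3.76% higher, 5.31% lower), and at Day 10, 3 (1 higher, 2 lower) against 3.14% (0.941% higher, 2.2% lower). At Day 2, again in a comparison added after the values were seen, 8 of 8 were called (6 higher, 2 lower) against 18.8% of 18404 features (6.54% higher, 12.3% lower), a count that went to 4 without Day 2 replicate B, to 6 without Day 2 replicate A and to 5 with cells matched on UMIs.
*Hhip* had the largest increase among members on each day, at 2.44 ± 0.06 (log2; adjusted p = 3.24e-11) at Day 2, 1.65 ± 0.08 (adjusted p = 3.49e-08) at Day 7 and 0.76 ± 0.11 (adjusted p = 6.38e-04) at Day 10. *Gli1* was higher by 1.43 ± 0.09 and 1.18 ± 0.14 at Day 2 and Day 7, and *Ptch1* by 1.08 ± 0.05 and 0.40 ± 0.07, whereas at Day 10 neither was called (0.40 ± 0.17, adjusted p = 0.325, and -0.13 ± 0.07, adjusted p = 0.483). *Ihh* was lower in *Pthlh*-positive cells, by -0.68 ± 0.20 at Day 2 (a call lost without Day 2 replicate B, -0.30, with DESeq2, -0.73, and with matched cells, -0.74), -1.90 ± 0.23 at Day 7 and -2.69 ± 0.23 at Day 10, and *Pth1r* was lower by -0.23 ± 0.06, -0.82 ± 0.09 and -1.10 ± 0.08, the first a call lost with DESeq2 (-0.22), without Day 2 replicate B (-0.20) and with matched cells (-0.20).
Over all cell types, cells positive for *Pthlh* thus had more of the hedgehog targets at Day 2 and Day 7. Within cartilage-like cells, those positive for *Ihh* had less of them at Day 7 and Day 10 before matching on UMIs. These comparisons cover different cells, and over all cells of Day 10 *Ptch1* was higher in *Ihh*-positive cells (0.44). At Day 2 the joint interzone-like Cluster 5 led in *Pthlh*, *Hhip* and *Gli1*, and the part of cell type in the *Pthlh* comparison was not tested.

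**Figure D4:**
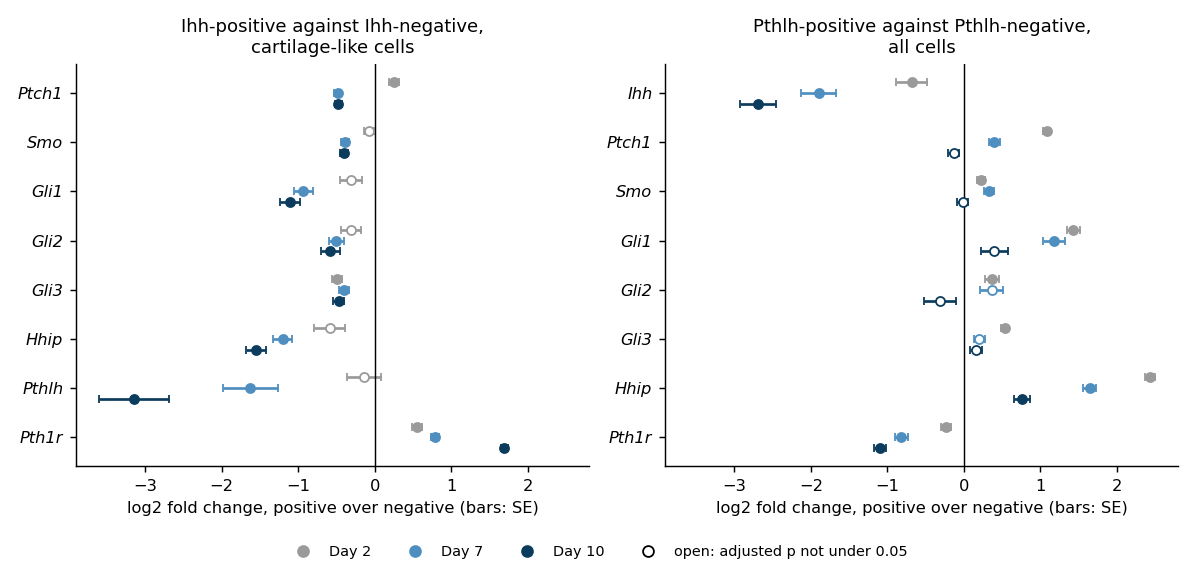
Log2 fold change ± SE of each member in ligand-positive against ligand-negative cells, for *Ihh* in cartilage-like cells and *Pthlh* in all cells at each day, with filled points where the edgeR adjusted p was under 0.05 and open points where it was not. *Hhip* lies at -1.55 in *Ihh*-positive cells of Day 10 and at 2.44 in *Pthlh*-positive cells of Day 2, and *Pth1r* lies at 1.70 and -0.23 in the same comparisons.

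Cells with UMIs of both ligands numbered 70 and 38 of the 597 and 617 *Ihh*-positive cells at Day 2, 12 and 18 of 1161 and 1115 at Day 7, and 12 and 6 of 1264 and 1081 at Day 10. *Ihh*-positive cells were deeper than *Ihh*-negative cells in each library (median 21164 against 3712 UMIs in Day 2 replicate B), so shares were compared after thinning, where *Pthlh* was detected in 1.04 and 1.25% of *Ihh*-positive against 2.20 and 1.81% of *Ihh*-negative cells at Day 2, 0.0446 and 0.0453 against 0.205 and 0.310% at Day 7, then 0.0122 and 0.0478 against 0.105 and 0.0917% at Day 10, a comparison that was not tested. After thinning, *Pth1r* was detected in 47.2 and 48.0% of *Ihh*-positive cells at Day 10 against 12.4 and 12.9% of *Ihh*-negative cells. *Hhip* was detected in 38.6 and 31.2% of *Pthlh*-positive cells at Day 2 against 12.5 and 7.17% of negative cells (12.5 and 9.83% against 1.93 and 1.61% after thinning), and unthinned in 41.6 and 49.1% against 11.3 and 12.1% at Day 7. The Day 7 shares are not matched in depth, with median UMIs of 18433 and 17176.5 in positive against 7735 and 8899.5 in negative cells.

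*Col10a1*, the collagen gene of hypertrophic chondrocytes, was used to order the cartilage-like cells of Day 10 in 4 bins, cells with no *Col10a1* UMI (1775 and 1921 cells), below 1000 CPM (729 and 547), from 1000 to below 10000 CPM (89 and 50) and at 10000 CPM or more (13 and 3, too few for a level to be read). Over the first 3 bins *Ihh* went from 62.5 to 117 to 252 CPM in replicate A and from 79.8 to 144 to 191 CPM in replicate B. *Pth1r* went from 387 to 548 to 1091 CPM and from 424 to 607 to 881 CPM. Both were thus higher in each successive bin in both libraries.
*Ptch1* went the other way. It was at 142, 113 and 61.3 CPM in replicate A and 158, 113 and 57.0 in replicate B, *Gli1* at 5.61, 3.36 and 1.29 and at 6.08, 3.61 and 0.864, and *Hhip* at 7.14, 5.33 and 1.03 and at 8.85, 5.35 and 2.16. The third bin held 5 and 2 UMIs of *Gli1* and 4 and 5 of *Hhip*, so their levels there rest on very few molecules. Depth moved with the bins, with median UMIs of 16243, 33267 and 45494 in replicate A and 10012, 32288 and 52416.5 in replicate B, and its part in these levels was not tested. At Day 7, *Ihh* was at 24.8 CPM without a *Col10a1* UMI and 60.1 below 1000 CPM in replicate A, and at 29.0 and 61.0 in replicate B, and *Pth1r* was at 134 and 161 and at 130 and 155.

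**Figure D5:**
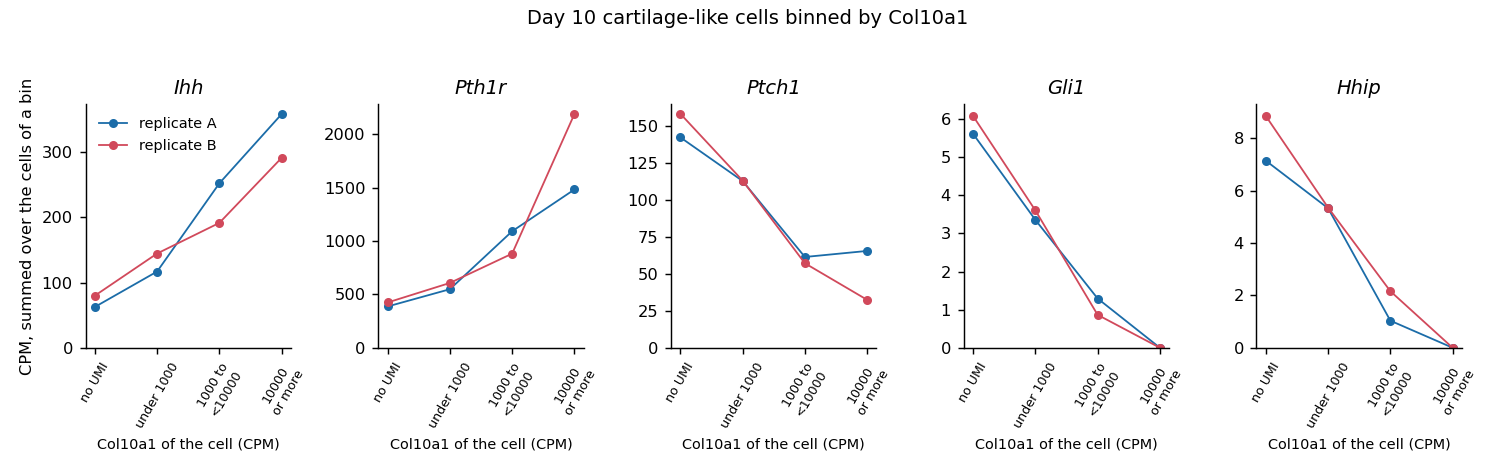
Level in CPM (linear axes from 0) of *Ihh*, *Pth1r*, *Ptch1*, *Gli1* and *Hhip* in cartilage-like cells of Day 10 over the bins of *Col10a1* level, 1 line per library. *Ihh* rises from 62.5 and 79.8 to 252 and 191 CPM over the first 3 bins while *Ptch1* drops from 142 and 158 to 61.3 and 57.0, and the last bin holds 13 and 3 cells.

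The alternative ligands were near or at 0. *Shh*, the limb bud's own polarising ligand, was at 0 in 3 of the 6 libraries and at 0.004 to 0.011 CPM in the others, *Pth* had 0 UMIs in all 6, and *Dhh* was at 0.54 and 0.43 CPM at Day 2 and fell by 1.04 to Day 7 (log2; adjusted p = 0.00222).

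Of 28 other hedgehog pathway genes, 27 were tested in whole cultures. From Day 2 to Day 7, 8 were higher and 11 lower (median log2 fold change -0.13, against 0.014 over all features), where 70.3% of all features were called. From Day 7 to Day 10, 6 were higher and 10 lower (median -0.14 against -0.016), where 52.2% of all features were called. Large changes to Day 7 were in *Mycn* (-4.95), a proliferation gene, *Foxf1* (2.58), a mesenchymal hedgehog target, *Scube2* (1.83), which helps to release hedgehog ligands, *Foxf2* (-1.63) and *Foxd1* (1.34). Of these, *Foxf1* (0.38 and 0.31 CPM) and *Foxf2* (0.71 and 0.75 CPM) were at low levels at Day 2. To Day 10 the largest were in *Scube3* (-1.30), *Foxd1* (1.09), *Foxf1* (1.03), the co-receptor gene *Cdon* (-0.99), *Scube2* (-0.72) and the ciliary transport gene *Ift88* (-0.59).
Of 18 other genes of PTHrP signalling, 17 were tested, with 7 higher and 8 lower to Day 7 (median -0.11) and 7 higher and 4 lower to Day 10 (median 0.18), against the same shares. *Nkx3-2*, a factor that holds chondrocytes before hypertrophy, rose by 1.56 to Day 7 and fell by 2.69 to Day 10. It was at low levels, with whole-culture means of 0.355, 1.05 and 0.162 CPM at Day 2, Day 7 and Day 10. In other cells its log2 fold changes were 1.66 and -4.40, against -1.30 to Day 10 in cartilage-like cells. The difference between classes, cartilage-like minus other cells, was -1.13 to Day 7 and 3.12 to Day 10. Its Day 10 level in other cells was 0.061 and 0.018 CPM. *Runx2*, the factor that drives hypertrophy and bone formation, rose by 0.72 and then 0.42, with its relative *Runx3* at 0.60 to Day 10. *Ptgs2*, which encodes a prostaglandin synthase, rose by 0.98 at each step. In cartilage-like cells from Day 7 to Day 10, 7 of 27 tested hedgehog genes were higher and 5 lower, and 7 of 16 PTHrP genes were higher and 3 lower, against 41.8% of all features (21.2% higher, 20.6% lower), among them *Ptgs2* (1.74), *Nkx3-2* (-1.30), *Runx3* (0.90), *Runx2* (0.66) and *Mef2c* (0.65), which encodes another driver of hypertrophy.

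The same lists were read in ligand-positive cells. In *Ihh*-positive cartilage-like cells of Day 10, 2 of 24 hedgehog genes were higher and 11 lower (median -0.33 against -0.017 over all features), where 21.3% of all features were higher and 20.9% lower, with the co-receptor gene *Boc* at -1.10 and *Disp1*, whose protein releases hedgehog ligands from the cells that make them, at 0.73. Of 16 PTHrP genes 7 were higher and 3 lower (median 0.10). Among the higher were *Nkx3-2* at 1.14 ± 0.38 (SE), a gene of low level, *Runx3* at 0.76 and *Mef2c* at 0.70. Among the lower were *Hdac4* at -0.71 and *Zfp521* at -0.59. In *Pthlh*-positive cells of Day 2, 12 of 27 hedgehog genes were higher and 2 lower (median 0.17 against -0.031), where 6.54% of all features were higher and 12.3% lower, among them *Foxf2* (1.93), *Foxd1* (1.28) and *Bcl2* (1.22), and at Day 7, 7 were higher and 1 lower, where 3.76% of all features were higher and 5.31% lower, with the co-receptor gene *Gas1* at 1.23.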

How the data were processed

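The authors aligned 10x 3′ reads to GRCm38 (mm10) with Cell Ranger 6.1.2 (STAR, version not given in the sources used here), and deposited whole-number UMI counts per gene and barcode for each library, not normalized, and their processing notes also name Seurat 4.1.0. Cells passed the filters stated by the study (at least 800 or 1000 UMIs, 200 to 7500 genes, at most 25 to 40% mitochondrial and 35 or 40% ribosomal UMIs, set per library), and no doublet caller was run, so that the upper gene limit was the only guard against doublets.

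Each day was clustered with Seurat 5.3.0 (sctransform 0.4.2, 3000 features, 35 dimensions, resolution 0.5, 0.5 and 0.7), both libraries integrated, without the members and their pathway lists. A cluster took a cell type name only with at least 3 markers of that list. The members and lists were chosen with earlier results of these data known. All 9 members are named, with up to 6 called genes of largest change per pathway list and the 3 genes most like each of 6 members, apart from items that are not reported here.

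Counts were summed per library and per class of cells, and the library was the unit of replication. Sums were tested with edgeR 4.0.16 (R 4.3.3; quasi-likelihood F-test, TMM, filterByExpr, Benjamini-Hochberg adjustment over all features tested), and a feature was called at an adjusted p under 0.05. Without strand or isoform information in the counts, reads shared by overlapping genes cannot be separated. Shares of cells were taken after thinning to 1000 UMIs, and some are given without it. The fits were tested on simulated counts with known changes: for whole cultures from Day 7 to Day 10 (18620 genes), 77.61% of genes changed 1.5-fold and 100% of those changed 2-fold were called, with 12 false calls. The difference between classes from Day 7 to Day 10 (17647 genes) had the lowest shares of the comparisons simulated, 74.63 and 83.58%, with 8 false calls. Only a small set of genes was changed there, drawn from those above a floor on the count summed over all libraries, under a common dispersion. Recovery was thus not measured below that floor or given apart for genes of low count. It was also not measured where 52.2% of features change as in the real data. Alternatives were DESeq2 1.42.0, other normalization, no count filter, other cell filters, other clusterings, cells matched on UMIs, a replicate block and leaving out each library.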

Additional observations from a re-analysis of the deposited data

Results flagged for a closer look

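The change with day differed between cartilage-like and other cells for 5 members from Day 7 to Day 10 and 6 from Day 2 to Day 7, by edgeR's test of the difference itself. Of all features, 31.9% and 46.0% were called in the same tests. From Day 7 to Day 10 the difference of log2 fold changes, cartilage-like minus other cells, was 2.28 for *Ihh*, 0.93 for *Pth1r*, 0.63 for *Ptch1*, 0.51 for *Hhip* and 0.23 for *Smo*. From Day 2 to Day 7 it was 1.05 for *Pth1r*, 0.28 for *Gli2*, -0.37 for *Ptch1*, -0.41 for *Gli1*, -0.51 for *Gli3* and -0.79 for *Ihh*. As given above, the later calls of *Ptch1*, *Hhip* and *Smo* were lost at 0.5 times the resolution. Of the earlier calls, *Gli2* was lost under all other clusterings, *Ptch1* turned at 0.5 times the resolution and *Gli1* was lost with DESeq2.

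For *Ihh* the earlier difference rests on a low level in the other cells (1.71 and 2.35 CPM at Day 2, 4.4 and 4.45 at Day 7), and its call was lost without Day 2 replicate A (-0.56) or Day 7 replicate A (-0.73), with DESeq2 (-0.83) and at 2 times the resolution (-0.43). The same difference turned to 2.19 without integration, and it also turned at 0.5 times the resolution. The later difference joins a rise in cartilage-like cells (1.58) to a fall in other cells (-0.67 ± 0.24, edgeR adjusted p = 0.0462) whose call was lost without any of 5 of the 6 libraries in turn (-0.31 without Day 10 replicate B, -0.66 to -0.68 without Day 2 replicate A or B or Day 7 replicate A or B), with the replicate block (-0.69) and at 0.5 times the resolution (-0.61), and that turned to 0.85 without integration.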

How the results depend on the processing

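In whole cultures no called member changed direction under any alternative run, and the uncalled *Ptch1* from Day 2 to Day 7 turned to -0.07 among cells of at least 10000 UMIs. Over all results of single members, 1492 values kept direction and call, 76 lost the call, 70 gained it and 43 turned, with 2 DESeq2 values of *Pthlh* that have no adjusted p left out, and of the counts and shares 194 stayed within 1.5 times or 1 SD and 24 moved. The cause was not tested.

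Among results called by the main or the alternative setting, those that turned were, in cartilage-like cells, *Ptch1* from Day 2 to Day 7 at 0.5 times the resolution (0.45) and, with the *Ibsp*-high cluster included, *Gli1* (0.79) and *Hhip* (1.72) from Day 7 to Day 10. Without integration of the libraries they were, in other cells, *Ihh* (-1.05) and *Pth1r* (-0.33) to Day 7 and *Ihh* (0.85) to Day 10. For the difference between classes from Day 2 to Day 7 they were *Ihh* (2.19), *Gli2* (-0.13) and *Hhip* (-0.58) without integration, *Ihh* (0.78) and *Ptch1* (0.52) at 0.5 times and *Gli2* (-0.04) at 2 times the resolution. In *Ihh*-positive cells they were *Ptch1* at Day 7 with cells matched on UMIs (0.04) and at Day 10 over all cells (0.44).

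The others that turned were called under neither setting. From Day 7 to Day 10 *Gli1* in cartilage-like cells was at 0.28 at 2 times the resolution and 0.14 among cells of at least 10000 UMIs, and *Ptch1* in other cells was at -0.20 with the *Ibsp*-high cluster counted as cartilage-like, and from Day 2 to Day 7 at -0.08 at 0.5 times the resolution and -0.05 among cells of at least 10000 UMIs. For the difference between classes to Day 7, *Smo* was at 0.00 with no filter, 0.05 without Day 2 replicate B, 0.02 without Day 7 replicate A, 0.09 at 0.5 times the resolution and 0.01 at 10000 UMIs, and *Pthlh* at 0.43 without Day 2 replicate A (-0.84 to 0.43 over the libraries left out) and 0.24 at 2 times the resolution. To Day 10, *Gli1* was at -0.10 at 0.5 times the resolution, *Gli2* at 0.19 with the *Ibsp*-high cluster, and *Gli3* at 0.09 without Day 10 replicate A and 0.03 without integration. In *Ihh*-positive cells of Day 2, *Smo* was at 0.01 over all cells and *Pthlh* at 0.08 without Day 2 replicate B (-0.61 to 0.08 over the libraries left out) and 0.07 with matched cells. In *Pthlh*-positive cells of Day 10, *Ptch1* was at 0.01 without Day 10 replicate B (-0.28 to 0.01 over the libraries left out), 0.21 with matched cells and 0.23 with at least 2 UMIs, *Smo* at 0.01 with DESeq2 and with RLE factors, 0.05 without Day 10 replicate A, 0.14 with matched cells and 0.06 with at least 2 UMIs, and *Gli2* at 0.15 with at least 2 UMIs.

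Counts of called members that moved were 3 in place of 6 with DESeq2 for the difference between classes to Day 7, and 3 in place of 8 for *Ihh*-positive cells of Day 7 matched on UMIs. For *Ihh*-positive cells of Day 2 the count was 8 without integration, 7 at 2 times the resolution and 6 over all cells, in place of 3, and for *Pthlh*-positive cells of Day 2 it was 5 with DESeq2, 5 with matched cells and 4 without Day 2 replicate B, in place of 8.

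The share of *Ihh* UMIs in cartilage-like cells was 53.3% without integration in place of 67.4% at Day 2, and 95.1% without integration, 85.1% at 0.5 times and 65.1% at 2 times the resolution in place of 83.4% at Day 7. For *Pth1r* these were 19.5, 40.4 and 24.8% in place of 17.0% at Day 2, and 75.1, 68.2 and 44.1% in place of 64.1% at Day 7. The share of cartilage-like cells with an *Ihh* UMI on the 3 days was 3.19, 2.16 and 5.95% at 1000 UMIs, 6.04, 4.03 and 10.4% at 2000 UMIs and 32.9, 22.3 and 35.1% without thinning.

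Leaving out 1 library in turn, with the lone library of a day assumed to vary like the others, gave 7 to 9, 7 to 8 and 7 to 9 members for the 3 whole-culture comparisons (Day 7 against Day 2, Day 10 against Day 7, Day 10 against Day 2), 7 to 8 and 5 to 6 in cartilage-like cells, 6 to 7 and 6 to 8 in other cells, and 4 to 6 and 5 to 6 for the difference. It gave 2 to 3, 6 to 8 and 7 to 8 in *Ihh*-positive cells and 4 to 6, 5 to 8 and 3 to 3 in *Pthlh*-positive cells of Days 2, 7 and 10.

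The replicate letters did not pair the libraries, since deviations from the day means over 16540 features correlated at -0.03, 0.02 and -0.08 between days. With a replicate block the whole-culture counts were 8, 9 and 9, *Smo* (-0.15, cartilage-like) and *Ihh* (-0.69, other cells) lost their calls from Day 7 to Day 10, and *Gli1* gained them in whole cultures (-0.26) and other cells (-0.38). *Pthlh* at Day 10 rests on few molecules, 247 and 209 UMIs, although the Day 10 libraries held the most UMIs (260245417 and 233277576).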

Other observations

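Over 80 sums per cluster and library, the genes whose log2(CPM + 1) was most like that of a member were sought among 9999 genes, as a description across sums that share cells, libraries and depth. For *Ihh* they were *Fxyd3* (Pearson's r 0.885), *Chad* (0.842), which encodes a cartilage matrix protein, and *Chst11* (0.837), which encodes an enzyme of chondroitin sulphate synthesis. For *Pthlh* they were *Rarb* (0.912), a retinoic acid receptor gene, *Ebf2* (0.860) and *Adamts19* (0.857). For *Pth1r* they were *Sgms2* (0.790), *P3h2* (0.785) and *Rhbdl2* (0.785).

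Among the targets, *Hhip* was most like *Errfi1* (0.755), the mesenchymal receptor gene *Pdgfra* (0.754) and *Tiparp* (0.741), *Ptch1* most like *Carmil1* (0.841), *Tiam2* (0.837) and *Nfat5* (0.829), and *Gli1* most like *Cd2ap* (0.815) and *Prrg1* (0.812). No gene named here was shared between members.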
